A study of Mus musculus with 27 samples.

Results

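A set of 8 complement genes, of 26264 gene symbols in the deposited expression table, were followed through the cortex of vehicle-, R33- and R55-treated 5xFAD mice. They were taken by symbol: C1qa, C1qb and C1qc (listed in lower case as c1qa, c1qb and c1qc), C3 (c3), C4b (c4b), C3ar1 (c3ar1), C5ar1 (c5ar1) and Serping1 (serping1). These symbols were found in the table, and the rule takes genes by symbol, not by a measured value. Of these genes, 7 passed the filter for testing, a mean of at least 1 FPKM (fragments per kilobase of gene, scaled to the fragments counted in the library), and C3 fell below it.

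The study asked how compounds that stabilise retromer, a complex that returns cargo from endosomes, alter the brain of a mouse model of amyloid disease. All mice were female 5xFAD mice on a C57BL/6 background, 16 weeks old, so every group, vehicle included, carried the amyloid transgenes, which are driven by the neuronal Thy1 promoter, and no mouse free of them entered the comparisons. Vehicle (DMSO with sulfobutylether beta-cyclodextrin in saline), R33 (10 mM) or R55 (10 mM) was microinjected into the lateral parietal association cortex of 1 hemisphere, and a cortical block of each hemisphere was taken 24 h later. There were 27 libraries of 14 mice: 4 vehicle mice with 8 libraries, 5 R33 mice with 9 (mouse AE gave the injected side only) and 5 R55 mice with 10.

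Complement is a cascade of plasma and tissue proteins that tags targets for removal. In the classical pathway the hexameric recognition molecule C1q, assembled from the A, B and C chains encoded by C1qa, C1qb and C1qc, binds a surface and leads through C4 to cleavage of C3, the hub on which all pathways meet. The small fragments released from C3 and C5 act on the receptors C3ar1 and C5ar1, while Serping1 (C1 inhibitor) holds the first step back. In brain, microglia are the main source of C1q, reactive astrocytes express C4 and C3, and complement tagging is known for its part in the loss of synapses around amyloid plaques.

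Libraries held 15932197 to 38077031 fragments on genes (median 27441308), as recovered from the FPKM. Mice carried labels of 1 letter (9 mice, 18 libraries) or of 2 letters (5 mice, 9 libraries), and what the number of letters marks is not stated; it is called the series of the mouse label here. Each treatment had mice of both series, with 1 of 4 vehicle, 2 of 5 R33 and 2 of 5 R55 mice having 2 letters. In a tissue block, fewer cells of a type and less RNA per cell cannot be told apart, and this holds for every level below. Libraries of 1 mouse entered the tests as separate samples, so the p-values measure the spread between libraries.

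The 3 C1q genes lie side by side on mouse chromosome 4 (GENCODE vM39 annotation of GRCm39), all on the minus strand, with C1qb at chr4:136606009-136613511, C1qc at chr4:136616466-136620376 and C1qa at chr4:136623223-136626161. Their joint span of 20153 bp overlaps no other protein-coding gene. C4b at chr17:34947354-34962912 and C3 at chr17:57510964-57535155 are on chromosome 17, C3ar1 at chr6:122823393-122833122, C5ar1 at chr7:15980668-15993465 and Serping1 at chr2:84595705-84620873, again all on the minus strand. C4b has a near-identical neighbour, C4a, listed at a mean of 0.147 FPKM, so how the counting divided their fragments is uncertain and the C4b values carry that limit.

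The promoters of C1qb, C1qc and C5ar1 are shown because their windows held the sequence word searched for below. RefSeq sequences on GRCm38.p6 covered 5 of the 8 genes (C1qb, C1qc, C3, C3ar1 and C5ar1). In the 250 bases before the start, the 7 letters AGGAAGT, an Ets-type word of the kind bound by PU.1, were searched on both strands, and they occurred in 2525 of 32851 promoters (7.686%) and in 3 of these 5. All 4 occurrences were of the reverse complement, ACTTCCT, which is in capitals in the sequences, each given 5′ to 3′ along the gene.
C1qb, minus strand of chr4:136886201-136886450: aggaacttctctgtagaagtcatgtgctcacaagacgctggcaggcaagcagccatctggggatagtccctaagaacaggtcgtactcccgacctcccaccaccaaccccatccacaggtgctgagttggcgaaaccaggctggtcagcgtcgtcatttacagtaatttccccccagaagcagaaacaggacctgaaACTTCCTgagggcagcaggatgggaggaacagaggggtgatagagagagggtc
C1qc, minus strand of chr4:136892915-136893164: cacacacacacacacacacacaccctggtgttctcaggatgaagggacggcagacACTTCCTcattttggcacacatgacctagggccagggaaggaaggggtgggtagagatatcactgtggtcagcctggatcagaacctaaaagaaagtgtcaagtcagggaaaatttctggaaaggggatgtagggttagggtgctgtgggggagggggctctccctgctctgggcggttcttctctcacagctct
C5ar1, minus strand of chr7:16259339-16259588: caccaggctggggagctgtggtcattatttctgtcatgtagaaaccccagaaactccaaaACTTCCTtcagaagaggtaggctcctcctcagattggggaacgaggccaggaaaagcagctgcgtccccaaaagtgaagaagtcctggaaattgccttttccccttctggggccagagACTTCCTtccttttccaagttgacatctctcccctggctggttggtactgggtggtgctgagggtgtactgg
The match spanned bases 53 to 47 before the start in C1qb and bases 195 to 189 in C1qc. C5ar1 held a pair of matches, at bases 190 to 184 and 72 to 66. C3 and C3ar1 did not contain these letters in this window, and a match describes the sequence, not a bound site.

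By level per length of transcript, the C1q genes stood far above the rest of the members. C1qa, encoding the A chain, averaged 169 ± 57.7 FPKM (SD, n = 27 libraries), with a lowest value of 87.09, a median of 161.9 and a highest of 312.5. C1qb, the B chain, averaged 160.2 ± 59.9 FPKM over the same libraries (80.89 to 314.8). C1qc, the C chain, averaged 156 ± 55.3 FPKM (82.66 to 298.5). The 3 chains ranked 277, 311 and 325 among all symbols by mean FPKM, and their ranges lay almost on top of each other.

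**Figure D1:**
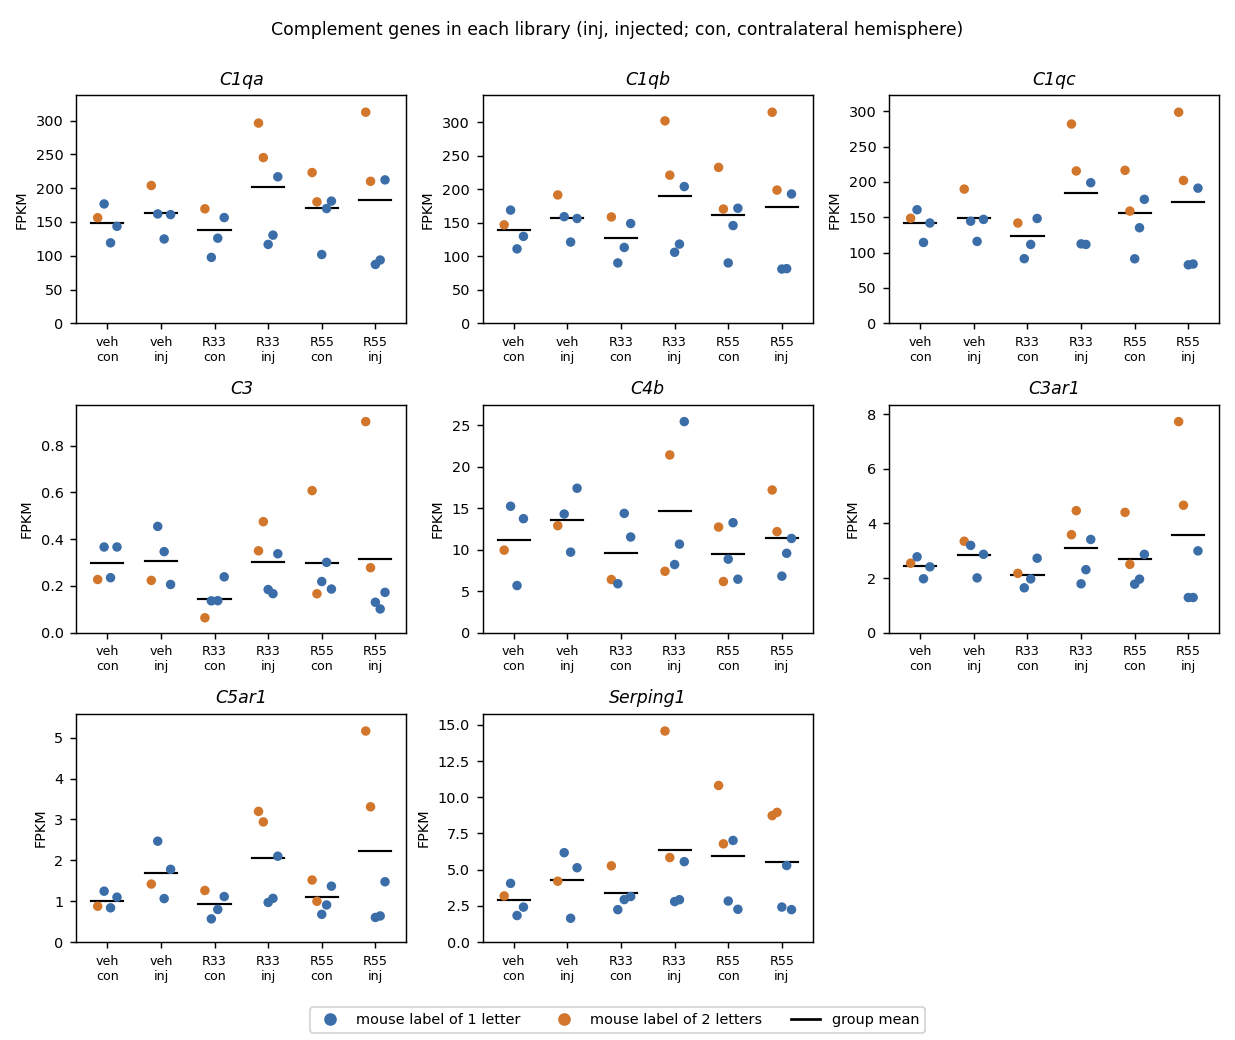
FPKM of the 8 complement genes, one panel per gene with its own linear axis from 0, in each of the 27 libraries (one point per library) by treatment and hemisphere; colour gives the number of letters in the mouse label and black bars the group means. The treatments overlap for every gene, the C1q panels share one shape, and single libraries stand high for Serping1 (14.57 FPKM) and C3 (0.9024 FPKM).

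The next levels were much lower. C4b, the mouse C4 component that carries the cascade from C1q towards C3, averaged 11.7 ± 4.86 FPKM (SD, n = 27; 5.678 to 25.44). Serping1, the inhibitor of the C1 proteases, averaged 4.86 ± 3.09 FPKM (1.643 to 14.57), a range that reached that of C4b only at its upper end.

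The receptors came below. C3ar1, the receptor of the C3 fragment C3a, averaged 2.84 ± 1.33 FPKM (SD, n = 27; 1.286 to 7.722), from 138 to 723 fragments a library. C5ar1, the receptor of the C5 fragment C5a, averaged 1.54 ± 1.06 FPKM (0.57 to 5.163), from 41 to 289 fragments a library. C3 itself was at 0.281 ± 0.176 FPKM (0.06382 to 0.9024), from 9 to 101 fragments a library. The central component of the cascade was thus the least abundant of the 8 members, and its highest value lay 14.1 times above its lowest at a depth where counting error is a large part of each value.

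Members also differed in how far they varied. The highest library stood above the lowest by 9.09 times for C5ar1, 8.87 times for Serping1, 6.01 times for C3ar1 and 4.48 times for C4b. The same ratio was 3.59 to 3.89 for the C1q genes.

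The chains of C1q kept a fixed proportion. C1qa was 1.07 times C1qb on average, with a coefficient of variation of 4.54% over 27 libraries (0.9597 to 1.166). C1qa over C1qc varied by 5.16% and C1qb over C1qc by 4.89%. The ratio of C3ar1 to C1qa varied by 17.4%, that of C4b to C1qa by 34.4%, that of C5ar1 to C1qa by 36.6% and that of Serping1 to C1qa by 42.4%.

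After each library was taken relative to the mean of its own treatment and hemisphere, correlations of log2(FPKM + 1) over the 27 libraries of 14 mice were taken, as a description of libraries that share mice, depth and label series. Pearson's r was 0.99 for each pair of C1q genes. C1qa correlated with the receptors at 0.91 (C3ar1) and 0.88 (C5ar1), and the receptors with each other at 0.93. Serping1 followed C1qa at 0.66, C3 at 0.62 and C4b at 0.44. The C4b value fell to 0.38 without the 2 libraries farthest in C1qa.

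**Figure D2:**
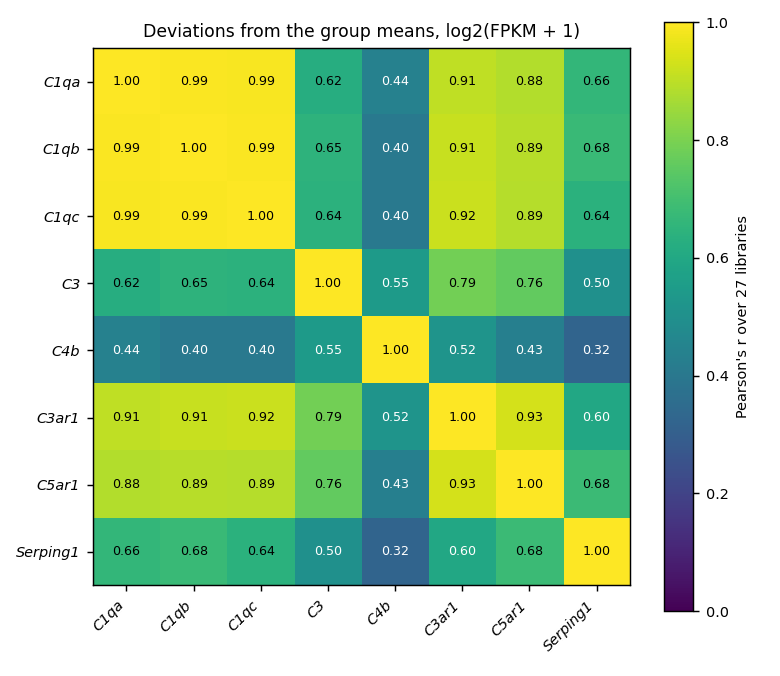
Pearson correlation between every pair of the 8 complement genes over 27 libraries, computed on log2(FPKM + 1) after subtracting the mean of each treatment and hemisphere; numbers in the cells give r. The C1q genes and both receptors form a block, with r from 0.88 to 0.99 against C1qa, and C4b has the weakest value against C1qa, 0.44.

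Outside the members, the genes most like C1qa among all tested were Ptpn6 (r = 0.9854), Fcer1g (0.9794) and Vav1 (0.9738), which encode a phosphatase, an Fc receptor adaptor and an exchange factor of blood-lineage cells. Ptpn6, Vav1 and Fcer1g also led for C1qb, and Fcer1g (0.9889), Olfml3 (0.9858) and Ncf1 (0.9819) for C1qc. C3ar1 was most like Lgmn (0.9587), Cd86 (0.9555) and Ctsc (0.9507), and C5ar1 most like Ctsc (0.946), Lyn (0.9413) and Lcp1 (0.9395). These are genes of lysosomal proteases, of a co-stimulatory ligand and of leukocyte signalling.

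The other members had neighbours of other kinds. C4b was most like Slc14a1 (0.8725), Icosl (0.8323) and Gpnmb (0.8292), and it correlated at 0.76 with Serpina3n, a gene of reactive astrocytes, and at 0.77 with Aqp4, the astrocyte water channel. Serpina3n was not particular to C4b, since it correlated at 0.84 with C3ar1 and at 0.79 with C3. The astrocyte gene Gfap went the other way, at 0.68 with C4b and 0.86 with C1qa. The microglia gene Tyrobp was at 0.36 with C4b and 0.97 with C1qa, and the microglia gene P2ry12 at 0.37 and 0.76. Serping1 was most like Aldh1a2 (0.9315), Gjb2 (0.9215) and Efemp1 (0.915), and it correlated at 0.84 with Dcn, which encodes decorin of fibroblasts. C3, at its low counts, had Samhd1 (0.8708), a nucleotide hydrolase gene, and Lmnb1 (0.839), a nuclear lamin gene, among its nearest.

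Neither compound changed a member past the test. With limma and Benjamini-Hochberg adjustment, 0 of the 8 members passed for R55 against vehicle, where 0.00771% of 12976 tested genes passed, and 0 had an unadjusted p under 0.05, against 8.45% of tested genes. For R33 against vehicle the members passing were again 0 (0% of tested genes) and 0 at the unadjusted threshold (5.87%). For R55 against R33, given at the same dose and time and compared as 1 pair, they were 0 (0%) and 0 (1.15%).

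For C1qa the mean FPKM per mouse was 169.3, 122.0, 152.2 and 180.1 in vehicle mice J, L, M and AH. In R33 mice K, N, O, AD and AE it was 107.2, 128.3, 186.7, 232.9 and 245.3. The AE value is its injected library alone, here and in all later values and means over mice. In R55 mice P, Q, R, AA and AB it was 94.44, 131.8, 196.6, 267.8 and 195.0. The vehicle mice lay inside the range of both compound groups, whose lowest mice were below every vehicle mouse and whose highest were above. On the log2(FPKM + 1) scale, R55 minus vehicle was 0.09 (SE 0.22, 95% interval -0.36 to 0.55) and R33 minus vehicle 0.07 (-0.40 to 0.54). The C1qb and C1qc differences for R55 were both 0.07.

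Serping1 showed the widest treatment differences of the members. Its mean per mouse was 5.114, 1.738, 3.774 and 3.695 FPKM in vehicle mice J, L, M and AH. It was 2.518, 2.93, 4.349, 9.917 and 5.835 FPKM in R33 mice K, N, O, AD and AE. It was 2.625, 6.153, 2.251, 9.767 and 7.869 FPKM in R55 mice P, Q, R, AA and AB. The groups overlapped, with 2 R33 and 3 R55 mice above the highest vehicle mouse, and 4 of these 5 carried 2-letter labels. R55 minus vehicle was 0.47 (SE 0.30, interval -0.13 to 1.083; limma adjusted p = 0.623), R33 minus vehicle 0.28 (-0.34 to 0.91) and R55 minus R33 0.19 (-0.40 to 0.78).

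C4b, the C4 component, had no settled direction. Its mean over mice was 12.4 ± 3.60 FPKM in vehicle (SD, n = 4), 13.3 ± 6.58 in R33 (n = 5) and 10.5 ± 2.84 in R55 (n = 5). R33 mice ranged from 6.904 in AD to 21.42 in AE, wide enough to hold all mice of the other groups. The AE value, its injected library alone, is not like the values of other mice, which average both hemispheres. It enters the R33 mean and SD. R55 minus vehicle was -0.23 on the log2 scale (SE 0.23, interval -0.70 to 0.25; limma adjusted p = 0.735), R33 minus vehicle -0.11 (-0.60 to 0.38) and R55 minus R33 -0.11 (-0.58 to 0.35). The sign for R33 thus differed between the mean FPKM of mice and the log2 fit over libraries, and leaving out a mouse moved the fitted value from -0.31 to 0.056.

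For the remaining members, R55 minus vehicle was 0.07 for each of C3ar1 and C5ar1 and -0.0145 for C3 (-0.19 to 0.16, fitted without the filter). For R55 against R33 the intervals of the C1q genes lay within -0.45 to 0.51. A p above the threshold does not show that the compounds act alike. These intervals rest on the spread between libraries, and each library held at least 2203 fragments for every C1q chain. Beside these values, striatal neuron markers were lower in R55 than R33 libraries in 6 of 6 genes (median -0.44), and their part in the differences was not tested.

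**Figure D3:**
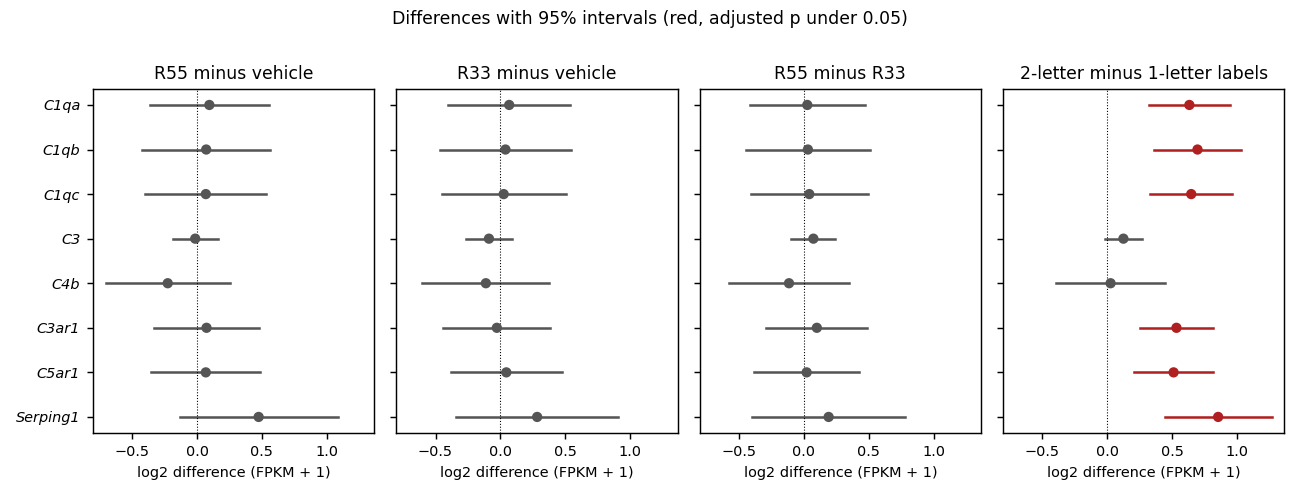
Log2 difference of each complement gene on the log2(FPKM + 1) scale (points) with its 95% interval from limma (lines), for R55 minus vehicle, R33 minus vehicle, R55 minus R33 and 2-letter minus 1-letter mouse labels; red marks an adjusted p under 0.05. Every interval of the treatment comparisons crosses 0, and 6 genes are red in the comparison of label series, which is described further on.

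The injected hemisphere was compared with the contralateral one over all treatments. By limma with Benjamini-Hochberg adjustment 0 of 8 members passed (0% of tested genes), and 1, C5ar1, was higher at an unadjusted p under 0.05, against 1.46% of tested genes. All 8 estimates were above 0, and the median of the 7 members above the filter was 0.23 beside 0.00097 over all tested genes. The side difference within each label series is given further on. C5ar1 was higher by 0.48 (SE 0.17, unadjusted p = 0.00777, limma adjusted p = 0.9999), C4b by 0.35 (SE 0.19, unadjusted p = 0.0767 in limma) and the C1q genes by 0.19 to 0.20.

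The 2 hemispheres of a mouse can be set against each other directly in 13 mice. C5ar1 was 2.468 FPKM on the injected and 1.245 on the contralateral side of vehicle mouse J, 1.064 and 0.8379 in L, 1.78 and 1.099 in M, and 1.419 and 0.8767 in AH. In R33 mice it was 0.9697 and 0.57 in K, 1.07 and 0.7985 in N, 2.101 and 1.114 in O, and 3.197 and 1.262 in AD. In R55 mice it was 0.6027 and 0.6787 in P, 0.6397 and 0.908 in Q, 1.476 and 1.368 in R, 5.163 and 1.518 in AA, and 3.31 and 0.9984 in AB. The injected side was higher in 11 of 13 mice, in all vehicle and R33 mice, and lower in the R55 mice P and Q.

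With the mouse as a fixed block, the same difference was 0.44 for C5ar1 (SE 0.11, unadjusted p = 0.00127, limma adjusted p = 0.485). C4b, at 0.29 (limma unadjusted p = 0.0290), C3ar1, at 0.19 (0.0374), and Serping1, at 0.25 (0.0496), then also had an unadjusted p under 0.05, so that 4 of 8 members did, beside 3.11% of tested genes, and 0 passed after adjustment (0%). Without mouse AD the count was 2, C4b and C5ar1, and with the length trend removed it was 6. Within a treatment it was 3 in vehicle (4 mice), 6 in R33 (4 mice) and 0 in R55 mice (5 mice), and these counts were not tested against each other. The 3.11% is for the first of these fits. No share of tested genes is given for the others, so their counts lack a background and do not show a difference between treatments. Across mice, 5 of the members (C1qa, C1qb, C1qc, C3ar1 and C5ar1) were higher on the injected side in at least 10 of 13 mice, as were 5.21% of tested genes. The members are not independent in this count, since the C1q chains and receptors moved together.

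C4b was higher on the injected side in 9 of 13 mice, with R33 mouse O highest at 25.44 FPKM against 11.53. Serping1 was higher in 7 of 13, and R33 mouse AD held 14.57 against 5.266 FPKM. C1qa was higher in 10 of 13 mice, and R55 mouse Q went the other way, with 93.65 FPKM on the injected and 169.9 on the contralateral side. C3 was higher in 8 of 13 mice, by 0.045 on average.

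**Figure D4:**
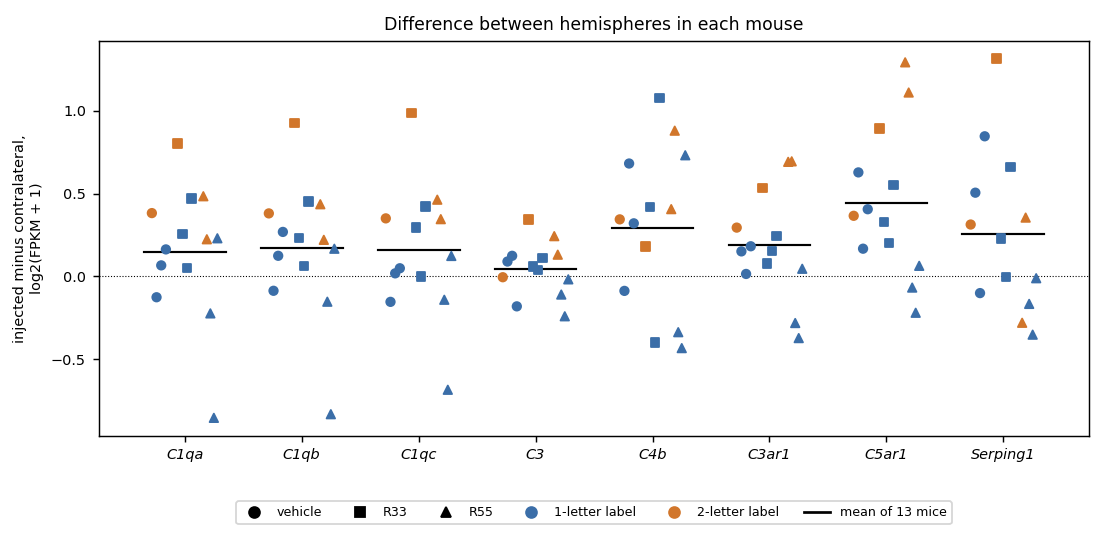
Injected minus contralateral log2(FPKM + 1) of each complement gene in the 13 mice with both hemispheres, one point per mouse; the shape gives the treatment, the colour the number of letters in the mouse label, and black bars the mean of 13 mice. C5ar1 lies above 0 in 11 of 13 mice and C1qa in 10, and the lowest C1qa point (-0.85) is R55 mouse Q.

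The side difference was also compared between compound and vehicle mice. For the effect of R55 between hemispheres 0 members passed the limma fit after adjustment (0% of tested genes) and 0 at the unadjusted threshold (1.84%). For R33 the same counts were 0 (0%) and 0 (0.378%). Beside the side difference, reactive astrocyte genes were higher on the injected side in 8 of 8 tested, 6 with an unadjusted p under 0.05 (median 0.50). Microglia markers were higher in 9 of 12, with 0 under that threshold (median 0.073), and endothelial markers were lower in 6 of 6 (median -0.13). Their part in the difference of the members was not tested.

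Most members were higher in mice of the 2-letter series. With treatment and hemisphere in the fit, 6 of 8 members were higher in 2-letter mice after adjustment, beside 8.85% of tested genes, and all 3 C1q genes, C3ar1, C5ar1 and Serping1 were among them. C1qa had a mean of 143 ± 35.3 FPKM in 1-letter mice (SD, n = 9 mice; lowest 94.44, median 131.8, highest 196.6) and of 224 ± 36.1 in 2-letter mice (n = 5; 180.1 in AH, 195.0 in AB, 232.9 in AD, 245.3 in AE and 267.8 in AA). The groups overlapped, in that 1-letter mouse R lay above AH and AB, and O above AH. The log2 difference was 0.63 (SE 0.15, limma adjusted p = 0.00639), with 0.70 for C1qb and 0.65 for C1qc. This fit took the 27 libraries, not the 14 mice, as separate samples.

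Among these 6, Serping1 had the largest difference, 0.86 (SE 0.20, limma adjusted p = 0.00552), from 3.50 ± 1.46 FPKM in 1-letter mice (1.738 to 6.153) to 7.42 ± 2.66 in 2-letter mice (3.695 to 9.917). The groups overlapped, with vehicle mouse AH the lowest of the 2-letter mice. C3ar1 was higher by 0.53 (SE 0.14, limma adjusted p = 0.00965) and C5ar1 by 0.51 (SE 0.15, 0.0189). Neither of these receptors passed when the libraries of each mouse were averaged.

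The components C4b and C3 did not pass this test. C4b differed by 0.027 (SE 0.21, limma adjusted p = 0.941), with 11.6 ± 4.06 FPKM in 1-letter (SD, n = 9) and 12.8 ± 5.68 in 2-letter mice (n = 5). C3 differed by 0.13 (SE 0.071, limma adjusted p = 0.266), with R55 mouse AA at 0.7549 FPKM and the other 2-letter mice at 0.207 to 0.4746. For none of the 8 members did all 2-letter mice lie above all 1-letter mice, as they did for 0.7475% of tested genes.

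With the mouse as a block the count of members higher stayed at 6 (4.50% of tested genes). With the libraries of each mouse averaged it was 4 (2.27%), the C1q genes and Serping1. Mouse AE, of the 2-letter series, entered this averaged fit with its injected library alone, and the fit held no term for hemisphere. In the fit over libraries, C5ar1 no longer passed without mouse P, without AD or without AA (5 members each).

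**Figure D5:**
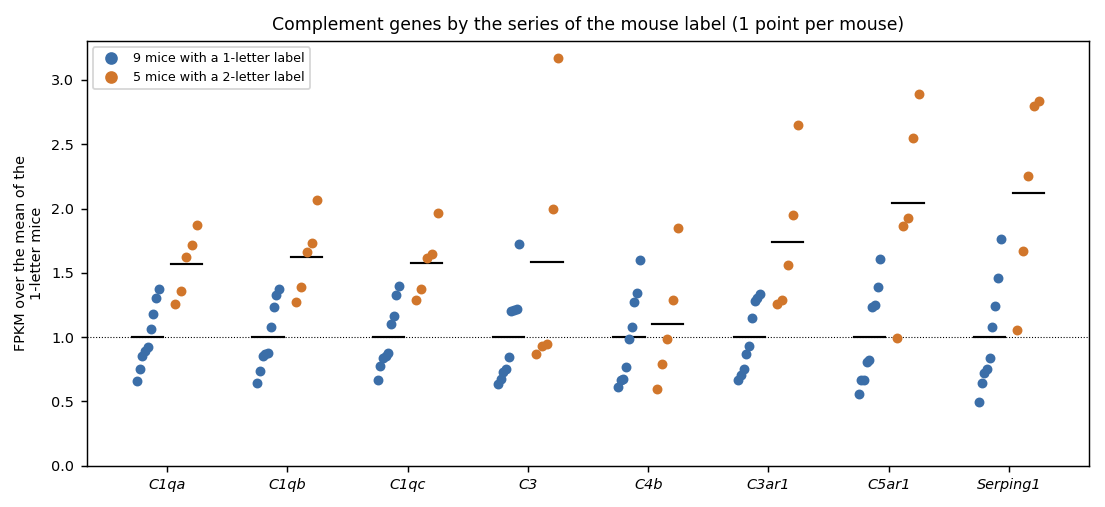
FPKM of each complement gene per mouse divided by the mean of the 1-letter mice, on a linear axis from 0, one point per mouse and black bars for the means of the 9 mice with 1-letter and the 5 with 2-letter labels. The 2-letter mice lie higher for the C1q genes, C3ar1, C5ar1 and Serping1, with overlap, while for C4b the group means are 11.6 and 12.8 FPKM. The points of mouse AE are its injected library alone.

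Cell-type markers moved with the label series as well. Of 12 microglia markers 9 were higher after adjustment (median 0.44), and their summed level was 262.9 to 527.9 FPKM in 1-letter libraries (median 346.2) and 437.9 to 778.5 in 2-letter libraries (median 528.7), with none at 0 in either. All 6 endothelial markers were lower (median -0.83; summed level 52.07 to 132.0 against 35.76 to 55.13 FPKM). Of 14 phagocytic and disease-associated microglia genes 8 were higher after adjustment (median 0.51), and of 8 tested reactive astrocyte genes 2 were (median 0.43). Of 7 tested mural and fibroblast markers (median 0.55), Col1a1 (0.55), Col1a2 (0.71) and Lum (0.88) were higher and the pericyte gene Rgs5 (-0.60) lower after adjustment, and Dcn, which Serping1 followed, was at 0.90 (limma adjusted p = 0.0558). The 7 border macrophage markers summed to 1.317 to 5.17 FPKM in 1-letter and 5.257 to 17.11 in 2-letter libraries. Only 1 of these 7 passed the filter of 1 FPKM, and libraries of 1 mouse are counted separately here. How often other sums part the series in this way was not tested. Of 10 neuron markers 0 passed (median -0.024; 0 at an unadjusted p under 0.05), and their part in the members' difference was not tested.

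The size of the side difference was compared between the label series, a comparison chosen after the values were seen. C5ar1 was higher on the injected side by 0.91 on average in 4 2-letter mice and by 0.23 in 9 1-letter mice, a difference of 0.69 (SE 0.23, unadjusted p = 0.00812, limma adjusted p = 0.470). C3ar1 differed by 0.53 (SE 0.13, unadjusted p = 0.000751, limma adjusted p = 0.257), from 0.025 in 1-letter to 0.55 in 2-letter mice. C1qa went from 0.0042 in 1-letter to 0.47 in 2-letter mice, C1qb from 0.027 to 0.49, C1qc from -0.0075 to 0.54 and C3 from -0.014 to 0.18. C4b (0.22 and 0.45) and Serping1 (0.18 and 0.43) were above 0 in each series. Of the 8 members 6 had an unadjusted p under 0.05, all but C4b and Serping1, beside 4.70% of tested genes, and 0 passed after adjustment (0%). Without mouse AD the unadjusted count was 3, beside 436 of 12976 tested genes higher.

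The other genes of the system were taken from lists and mostly lay low. Of 14 classical and lectin pathway genes only Masp1 (2.95 FPKM), a lectin pathway protease, and C1ra (1.28 FPKM), a C1 protease, were high enough to test, and Mbl1 was listed at 0. Of 4 alternative pathway genes 2 were tested, Cfp (properdin, 2.56 FPKM) and Cfb (factor B, 1.32 FPKM), and of 7 terminal pathway genes 1, C8g (1.13 FPKM). Of 10 regulators 6 were tested, led by Clu (clusterin, 694.2 FPKM), Vtn (vitronectin, 43.3 FPKM) and Cr1l (7.2 FPKM). Of 6 other complement receptors 3 were tested, Itgam (12.5 FPKM), Itgb2 (7.81 FPKM) and Itgax (1.94 FPKM), the integrin chains of complement receptors 3 and 4.

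In these lists 0 genes passed for R55 against vehicle or for R33 against vehicle, by limma after adjustment. Median differences for R55 were 0.024 for the regulators and 0.012 for the other receptors, beside 0.026 over all tested genes, with 0 of them at an unadjusted p under 0.05. Between label series Itgam (0.46) and Itgb2 (0.51) were higher after adjustment, 2 of 3 receptors, and 3 of 6 regulators, Cd93 (-0.50), Cd59a (-0.36) and Cd55 (-0.28), were lower, these 3 named after their values were seen, beside 8.85% of tested genes higher and 10.2% lower. Cd93 is an endothelial surface protein, and Cd55 and Cd59a are membrane inhibitors of complement. For the 10 tested of 12 C1q- and TNF-domain proteins of other families, led by C1qtnf4 (113.4 FPKM), C1ql3 (24.1 FPKM) and Cbln2 (10.7 FPKM), the R55 median was 0.034 and the R33 median -0.026, with 0 and 1 at an unadjusted p under 0.05.

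Neuronal proteins with complement-control domains or C1q-binding pentraxin domains were the last list. The 10 tested of 11, led by Sez6l2 (127.1 FPKM), Nptx1 (89.2 FPKM) and Susd4 (48.8 FPKM), had values below vehicle in 10 of 10 under R55 (median -0.22) and in 10 of 10 under R33 (median -0.25), beside 0.026 and 0.018 over all tested genes; both comparisons share the vehicle libraries. By limma 0 passed after adjustment, and 4 under R55 and 6 under R33 were lower at an unadjusted p under 0.05, beside 3.74% and 2.68% of tested genes. With the trend on gene length removed the medians were -0.13 and -0.15, and the counts 1 and 4. The same list was lower in 2-letter mice in 9 of 10 (median -0.22), with 5 lower at an unadjusted p under 0.05. After adjustment 2 passed, beside 10.2% of tested genes lower. With the label series as a covariate the medians were -0.18 for R55 and -0.23 for R33, and the counts 4 and 6. The 3.74% and 2.68% belong to the fit without these changes. No share is given for the changed fits or for the unadjusted count between label series, so those counts lack a background.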

How the data were processed

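RNA was measured in cortical blocks of the injected and contralateral hemispheres. The authors extracted total RNA, made stranded mRNA libraries, sequenced them on a NextSeq instrument, aligned reads with HISAT2 to GRCm39 and tested with DESeq2; the counting tool and annotation are not given in the sources used here. The authors deposited FPKM in 1 table of 32 libraries, of which 27 were used and 5, outside the sample list followed, were not; 32 leftover header lines were dropped. Depths and fragment numbers were recovered from the FPKM. The length of each gene was taken as the smallest whole number that made its fragments whole. That values above 0 were whole fragments in 100.0% of cases (tolerance 0.01) follows from this choice. Summed fragments differed from the recovered depth by a relative gap of at most 4.5e-07.

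Groups followed the labelled treatment and hemisphere. The design, written before the unit was known, held a count test for a count table; as the table holds FPKM, limma 3.58.1 (R 4.3.3, statmod 1.5.0) was fitted to log2(FPKM + 1), with treatment and hemisphere as additive terms, an intensity trend and Benjamini-Hochberg adjustment over 12976 genes, those averaging 1 FPKM or more, calls at an adjusted p under 0.05. A fold change on this scale understates the change of low genes. C3 was fitted over 22013 genes without the filter. The label series was fitted with those terms, and the injected side between label series on pair differences. Intervals are 95%. Descriptions used matplotlib 3.10.9, scipy 1.17.1, pandas 2.3.3 and numpy 2.4.6 under Python 3.11.15. The fit was tested on simulated libraries without a mouse effect, so that check does not cover libraries that share a mouse.

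Hemispheres were paired by the mouse label, since they come from 1 animal. Deviations from group means correlated at a mean of 0.39 in 13 such pairs (-0.079 to 0.65) and -0.11 between other mice of a treatment (44 pairs).

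Genes named are the 8 members, at most 3 per complement list by mean FPKM, the 3 non-members most correlated with each member, and any gene a small count refers to; some genes are not reported here. Members and lists were chosen with earlier results of these data known. Alternatives were a pseudocount of 0.1, no filter, median-of-ratios scaling, voom on recovered fragments and removal of a length trend (lowess span 0.3). Others were each mouse left out, the mouse as a block, libraries averaged per mouse, and subsets by treatment, hemisphere and label series.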

Additional observations from a re-analysis of the deposited data

Results flagged for a closer look

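A pair of libraries stood far from the others of their group, among 48 combinations of a group and a member that were searched; chance alone places about 5% of groups here. Serping1 was at 14.57 FPKM in the injected hemisphere of R33 mouse AD, where the other 4 libraries of the group lay at 2.797 to 5.835 FPKM, a gap of 0.742 of the whole range. In the same library Dcn, a fibroblast gene, was at 30.88 FPKM, the astrocyte gene Gfap at 625.7 FPKM and the microglia gene Tyrobp at 253.0 FPKM. Each was at its highest of the 27 libraries. Dcn was also at 29.07 FPKM in the contralateral library of vehicle mouse J, where Serping1 was at 4.054 FPKM. The part of these genes in the Serping1 value was not tested. C3 was at 0.9024 FPKM in the injected hemisphere of R55 mouse AA, where the others lay at 0.1014 to 0.2778 FPKM, a gap of 0.7798 of the range. In that library C3ar1 and C5ar1 were also at their highest of all 27 libraries, at 7.722 and 5.163 FPKM. The same held for C1qa (312.5 FPKM), C1qb (314.8 FPKM) and C1qc (298.5 FPKM).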

How the results depend on the processing

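Under the alternatives run, the count of members passing stayed at 0 for each treatment comparison, for the injected side and for the interactions, including with the mouse as a replicate block (0 for the treatments and 0 for the injected side). For the label series it was 6 with the block, 5 to 6 when leaving out a mouse, and 4 with libraries averaged per mouse. Counts over all genes moved more. For R55 against vehicle 1 gene passed, 12 with only the compared treatments and 0 to 50 leaving out a mouse. For the label series 2477 passed, 1345 with the block, 741 with libraries averaged per mouse and 1552 to 2961 leaving out a mouse.

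Signs of small, uncalled differences changed, and the cause was not tested. For R55 minus vehicle, removing the length trend gave -0.0017 for c1qa, -0.025 for c1qb, -0.030 for c1qc and 0.0042 for c3. With the label series as covariate, c1qa was -0.00050, c1qb -0.034, c1qc -0.030, c3ar1 -0.0074 and c5ar1 -0.0096. In 1-letter mice alone, c1qa was -0.14, c1qb -0.22, c1qc -0.19, c3ar1 -0.25 and c5ar1 -0.30; in 2-letter mice alone, c3 was 0.25 and c4b 0.0064; on the injected side alone, c1qb was -0.032. For R33 minus vehicle, c1qa was -0.015 without the length trend, -0.10 in 1-letter mice and -0.13 on the contralateral side, and serping1 -0.023 in 1-letter mice. For R55 minus R33, c4b was 0.26 in 2-letter mice and 0.014 on the contralateral side, and serping1 -0.12 on the injected side. For the injected side, R55 mice alone gave -0.027 for c1qa, -0.032 for c1qb and -0.090 for serping1, and 1-letter mice alone -0.0075 for c1qc and -0.014 for c3, with the block as without it.

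Leaving out a mouse, R55 minus vehicle ran from -0.076 to 0.29 for c1qa, -0.13 to 0.28 for c1qb, -0.12 to 0.26 for c1qc, -0.12 to 0.024 for c3, -0.14 to 0.22 for c3ar1 and -0.11 to 0.21 for c5ar1. R33 minus vehicle ran from -0.065 to 0.24 for c1qa and -0.31 to 0.056 for c4b, R55 minus R33 from -0.28 to 0.059 for c4b and -0.014 to 0.45 for serping1, and 2-letter minus 1-letter from -0.13 to 0.25 for c4b. Depth limits C3 and C5ar1, with as few as 9 and 41 fragments a library.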
